A study of Mus with 2 samples.

Results

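Acod1, the enzyme that makes itaconate, and 8 enzymes of the tricarboxylic acid (TCA) cycle were examined in mouse bone marrow derived macrophages (BMDMs) polarized with IL-4 in the presence of GW4064, a synthetic agonist of the farnesoid X receptor. The 9 genes, Acod1, Aco1, Cs, Idh1, Idh2, Idh3a, Ogdh, Sdha and Sdhb, were taken out of 20144 genes with a matched probe. Acod1 was chosen by its higher signal on the GW4064 array, and the others because they act around aconitate and succinate, so the values below describe that choice and test nothing. All 9 were represented, by 12 probes at 21 spots of each array, and the scanner software called all 12 well above background for DMSO and for GW4064 alike.

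The BMDMs came from male C57BL6/J mice 10 weeks old and grew for 7 d in 10 ng/mL of M-CSF, followed by 24 h in 10 ng/mL of IL-4 (M2 conditions). The control culture received DMSO, the solvent, and the treated culture received 10 µM GW4064 for the same 24 h, both under IL-4. The labels name no mutation or transgene in either group. Each condition was read on 1 Agilent array with Cy3 as the only dye, and the sources used here do not state how many mice were behind each RNA. A difference between conditions therefore has no replicate error and no p-value, and every error given here is technical. Differences are log2 values, GW4064 minus DMSO, after the 75th percentile of each array was set to 0, and 2-fold was used as the threshold.

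In the TCA cycle, citrate synthase joins acetyl-CoA to oxaloacetate, aconitase turns citrate into isocitrate through cis-aconitate, and the dehydrogenases that follow lead through 2-oxoglutarate and succinyl-CoA to succinate, fumarate, malate and back to oxaloacetate. Acod1, also known as Irg1, removes a carboxyl group from cis-aconitate and so diverts carbon from the cycle to itaconate, which inhibits succinate dehydrogenase. It is known as a gene that macrophages switch on after LPS or interferon.

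Acod1 was higher with GW4064 at every one of its spots. The probe, matched to NM_008392, was printed at 10 positions between rows 47 and 471 of the 532 rows of the array. On the DMSO array its signal was 38.4 at the lowest, 45.0 at the median and 71.7 at the highest of 9 spots, and the tenth, at 90.4, had been marked by the scanner software as an outlier among its copies and was left out. With GW4064 the 10 signals ran from 224 through a median of 232 to 254. The lowest GW4064 spot was 3.13 times the highest DMSO spot that was kept. Acod1 was chosen by its higher GW4064 signal, so this gap describes that choice. How many other probes printed 10 times had copies as far apart was not counted.

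The averaged signal of Acod1 was 46.9 with DMSO and 234 with GW4064, a log2 difference of 2.26, or 4.78-fold. Over the 9 positions read on both arrays the difference was 2.26 ± 0.27 (SD, n = 9 positions), with 1.62 at the lowest and 2.51 at the highest. The spread lay on the DMSO side, with an SD of 0.26 (log2) there against 0.061 on the GW4064 array. Among 10 probes printed 10 times and within 0.5 (log2) of Acod1 on the DMSO array, the difference had a median SD of 0.21 over positions. On the DMSO array alone their median SD was 0.13, so the 0.26 of Acod1 was wider than usual at that brightness. Acod1 itself was not excluded from this comparison. These copies share one RNA per condition, so their spread is technical only and holds no difference between cultures.

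**Figure D1:**
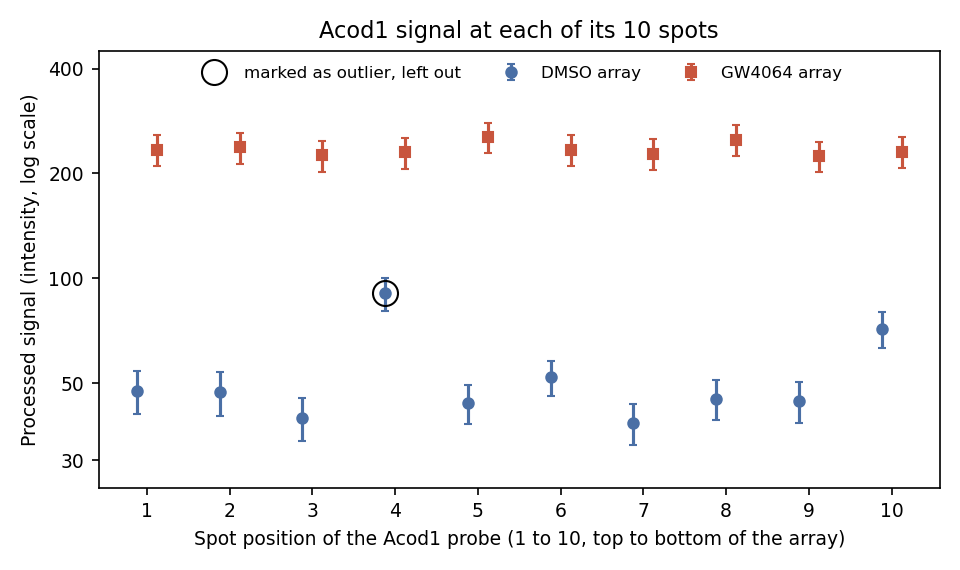
Processed signal of the Acod1 probe (intensity, log scale) at each of its 10 positions on the DMSO array (circles) and on the GW4064 array (squares), with bars for the scanner software's error estimate of each spot. The GW4064 signals lie between 224 and 254, all above the DMSO signals, including the ringed DMSO spot at 90.4 that was marked and left out.

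Spots that differ 8-fold or more between the arrays cluster in parts of the slide. None of the 9 positions used for Acod1 had more than 1 other such spot within 300 µm, and the marked position had 5. Leaving out all spots with 2 or more of them nearby gave Acod1 a difference of 2.26. That could change little, because it removed only the GW4064 spot at the marked position, whose DMSO spot was already left out. The background correction called normexp, run with 50 added to every signal so that dim signals are drawn together, moved it most, to 1.28, still above 2-fold.

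Acod1 was the only one of the 9 genes past 2-fold, 1 of 9 higher and 0 of 9 lower, where 2.04% of the 13532 measured genes passed 2-fold upwards and 2.71% downwards. The count was the same at 1.5-fold, which 4.39% of all genes passed upwards and 5.56% downwards, and at 4-fold, which 0.48% passed upwards and 0.584% downwards. Among all 13532 measured genes, with bounds counted as values, Acod1 stood at place 53 of the rises. In the order of rises among 12399 genes with every probe above background on both arrays, it stood at place 17. Of 2041 probes within 0.5 (log2) of its DMSO signal, 1.57% were 2-fold or more higher and Acod1 had the 5th largest rise.

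The genes nearest to Acod1 in that order were Col4a5 (2.31), Tgm2 (2.30) and Pram1 (2.27) above it and Olfr1218 (2.15), Slc36a2 (2.01) and Il1b (1.90) below it. Likeness here means only a similar log2 difference between the same 2 arrays. Of these neighbours Il1b was printed 10 times, Tgm2 was read by 2 probes and the others at a single spot. Col4a5 and Olfr1218 had 6 and 3 other spots with 8-fold differences within 300 µm, Slc36a2 had 1, and Il1b had up to 11 around a single one of its 10 spots. Without spots in damaged areas the difference of Il1b was 1.87.

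Aco1 encodes a cytosolic aconitase, which without its iron-sulfur cluster acts as an iron regulatory protein. Its signal was 180 ± 18.3 with DMSO and 212 ± 21.4 with GW4064, where the error is the software's own estimate for the spot. The log2 difference of 0.17 was within its propagated error of 0.21. Ireb2, the other iron regulatory protein, differed by 0.080.

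Cs encodes citrate synthase, the entry step of the cycle. Its signal was 58611 ± 5861 with DMSO and 61306 ± 6131 with GW4064. After scaling, the log2 difference was -0.00082, so that the arrays gave the same value for Cs to within a small part of the 0.20 error.

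The isocitrate dehydrogenases fall into NADP-dependent enzymes, Idh1 in the cytosol and Idh2 in mitochondria, and the NAD-dependent mitochondrial complex, of which Idh3a is the catalytic subunit. Idh1 had signals of 1223 ± 122 and 1478 ± 148, a log2 difference of 0.21, the highest of the 8 TCA cycle enzymes and about as large as its error of 0.20. Idh2 was read at 22233 ± 2223 and 23254 ± 2325, with a difference of -0.00084. Idh3a was read at 8216 ± 822 and 8544 ± 854, with -0.0093. The other subunits of the complex, Idh3b (0.060) and Idh3g (0.065), also differed by less than the error of 0.20.

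Aco1 and Idh1 were the members with the largest values after Acod1, and both encode cytosolic enzymes, while Idh2, the mitochondrial counterpart of Idh1, had -0.00084. Malate dehydrogenase had the opposite order, with -0.024 for the cytosolic Mdh1 and 0.19 for the mitochondrial Mdh2. Centring on the spike-in controls, RNA added in known amounts, was also tried. It shifts the median of all probes above background on both arrays to -0.18. Aco1 was then at -0.018, Idh1 at 0.016 and Mdh2 at -0.00011, with Idh2 at -0.19.

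Ogdh encodes the first subunit of the 2-oxoglutarate dehydrogenase complex and was the lowest of the members, with a mean log2 difference of -0.12 over 3 probes. The probe with signals of 3282 and 2977 gave -0.21. The probe with 11152 and 10966 gave -0.090, and that with 15472 and 15600 gave -0.054. All 3 were below 0, and only the first exceeded the error of 0.20. Different probes of a gene had a median SD of 0.080 in their log2 differences over the 3240 genes with 2 or more probes above background on both arrays. The other subunits of the complex were Dlst with 0.040 and Dld with -0.079.

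Succinate dehydrogenase, the enzyme that itaconate inhibits, oxidises succinate to fumarate and passes the electrons to the respiratory chain. Sdha, the flavoprotein subunit, was read at 20722 ± 2072 with DMSO and 22337 ± 2234 with GW4064, a log2 difference of 0.043. The probes for Sdhb, the iron-sulfur subunit, gave -0.052 (14163 and 14300) and 0.077 (50517 and 55785), a mean of 0.013. Of the membrane anchors, Sdhd differed by 0.014. Sdhc had one probe at 0.43, with 12 other spots of 8-fold difference within 300 µm, and another at 0.032 with 0 such spots, a mean of 0.23. Without the spots in such areas Sdhc was at 0.032.

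**Figure D2:**
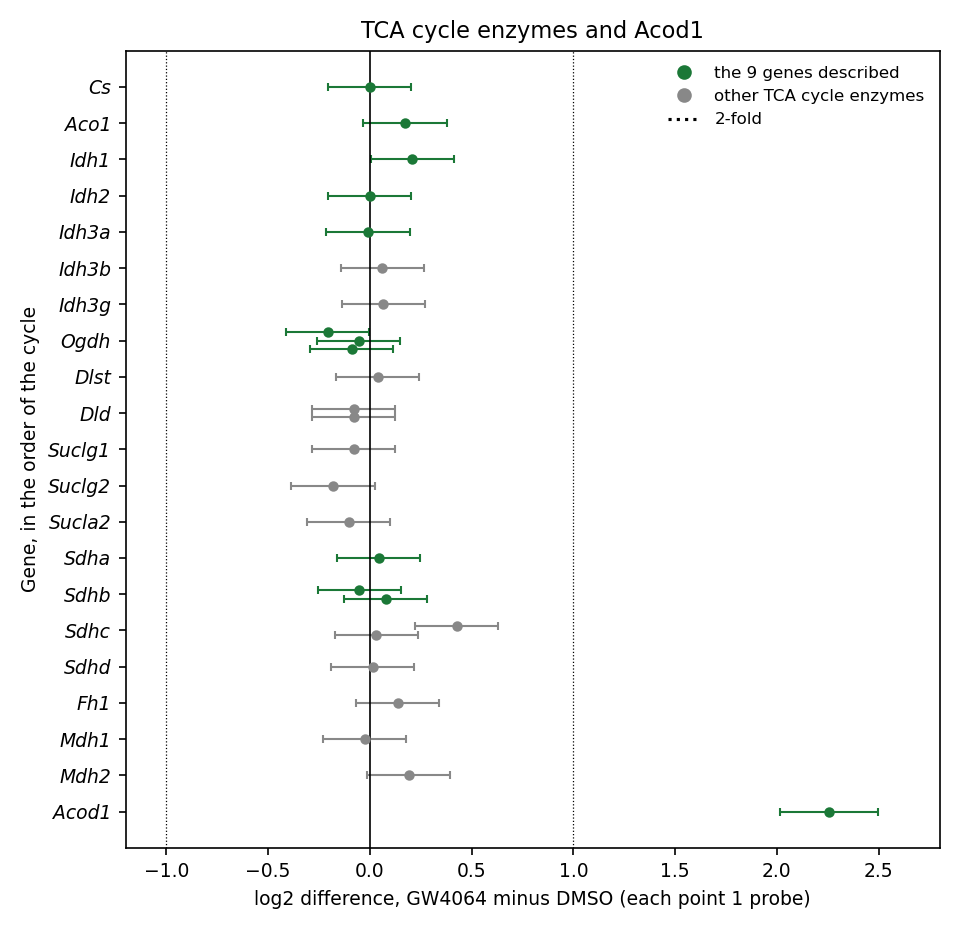
Log2 difference between the GW4064 and the DMSO array for each probe of Acod1 and of 20 TCA cycle enzymes, with bars for the error propagated from the scanner software's estimates. Acod1, at 2.26, lies beyond the dotted 2-fold line, and the probes of the other genes lie between -0.21 and 0.43.

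Across the 8 member enzymes of the cycle the log2 differences ran from -0.12 to 0.21, with a median of 0.0060, and 4 were above and 4 below 0. Their 11 probes had 0 other spots of 8-fold difference within 300 µm. Of all measured genes 67.5% differed by no more than the 0.21 of Idh1, and the median over them was 0.0068.

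Of the 13 other TCA cycle enzymes 7 were above and 6 below 0, with a median of 0.014 and 0 past 2-fold. Besides those named above, Fh1 (fumarase) had 0.14. The succinyl-CoA ligase subunits, which release succinate, were all below 0, with -0.079 for Suclg1, -0.18 for Suclg2 and -0.10 for Sucla2. Of the 26 probes for all 21 enzymes of the cycle, 3 differed by more than the software's error of 0.204 to 0.207. They were those for Idh1, 1 of 3 for Ogdh and 1 of 2 for Sdhc. That error hardly varies between these probes and is larger than the measured spread over copies. Probes printed 10 times with all spots well above background had a median SD of 0.077 in their log2 difference. A value below the software's error can therefore still exceed the spread over copies. Centred on the spike-in RNA, the 13 had a median of -0.18 and the 8 members one of -0.18, beside -0.18 for all probes above background on both arrays.

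**Figure D3:**
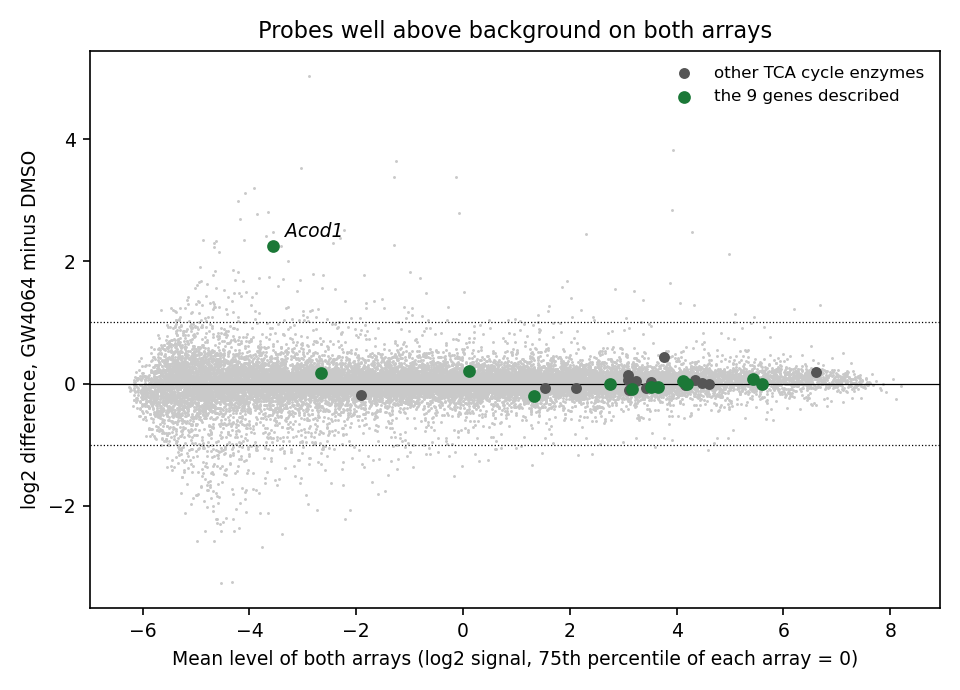
Log2 difference between the arrays against the mean log2 level of both for every probe above background on both arrays (grey), with the 9 genes in green and the other TCA cycle enzymes in dark grey. Acod1 stands at 2.26 among dim probes, and the enzymes of the cycle lie close to 0 between the dotted 2-fold lines.

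The genes that feed the cycle or handle its products were taken as lists, and none of the following had a gene past 2-fold. For pyruvate entry, 8 of 13 genes were above 0, with a median of 0.045. The pyruvate dehydrogenase subunit Pdhb (0.20) and the kinase Pdk1 (0.12) had the largest values among genes with every probe above background on both arrays. The kinase Pdk4 (-0.58) and the phosphatase Pdp1 (-0.31 over 3 probes), which act on pyruvate dehydrogenase in opposite directions, had the lowest. Pdp2 had -0.11 on one probe, and the other was dim with DMSO and at least 1.90-fold higher. The pyruvate carrier subunit Mpc2, printed at 10 spots, differed by -0.0011 with an SD of 0.035 over positions.

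Of 4 assembly factors of succinate dehydrogenase, Sdhaf1 (0.21), Sdhaf3 (0.20) and Sdhaf4 (0.042) were above 0 and Sdhaf2 (-0.21) below it, with a median of 0.12. In the glutamine and aspartate group, 4 of 9 were above 0 with a median of -0.0053, from -0.12 for the glutamine synthetase Glul to 0.20 for the amino acid transporter Slc38a2 and 0.086 for the transaminase Gpt2. For citrate export and the malate shuttle, 4 of 8 were above 0, with a median of -0.050. Slc25a11, the mitochondrial 2-oxoglutarate carrier, had 0.44 (23388 and 33258) and Slc25a10, the dicarboxylate carrier, 0.28. Malic enzyme Me1 had -0.40 and the ATP citrate lyase Acly -0.17.

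Among 4 genes for the handling of itaconate, 3 were above 0 and the median was 0.033. Slc13a3, a dicarboxylate transporter of the plasma membrane, was lower by 0.48 on the log2 scale, from 1638 ± 164 to 1226 ± 123. Abcg2, an efflux transporter, differed by 0.24, Clybl, which acts in the breakdown of itaconate, by 0.058 and Auh by 0.0084.

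Sucnr1, the cell surface receptor for succinate, was the one gene of these lists past 2-fold downwards. Its signal was 77.4 ± 8.95 with DMSO and, at 4.12, no longer well above background with GW4064, which made it at least 5.36-fold lower, a log2 difference of -2.42. It was read at 1 spot with 0 others of 8-fold difference within 300 µm. As a background for single spots, 1218 spots of dim probes printed 10 times, marked or not, lay outside the damaged parts of the slide. Of these, 4 had a signal as high as that of Sucnr1 on the DMSO array. Among the 1160 unmarked ones it was 0. A probe with a single spot, like that of Sucnr1, has no copies among which it could be marked as an outlier. After the normexp correction the difference was -0.90, short of 2-fold.

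Acod1 belongs to the genes that LPS and interferon induce in macrophages, and 13 of a list of 15 other such genes were measured. Of these 7 were above and 6 below 0, with a median of 0.00097, and 2 were 2-fold or more higher. Il1b, the cytokine, had signals between 18.2 and 23.2 with DMSO, over the 7 of its 10 spots that were not marked. With GW4064 they lay between 73.1 and 98.2 over 10 spots, all above those 7. The signals of the marked DMSO spots are not given here, so whether they overlap with GW4064 is not shown. How often the copies of other probes lie apart was not counted. The DMSO signals were near background, and 6 of the 7 spots were well above it. Its log2 difference was 1.90, with an SD of 0.20 over positions, and 0.64, short of 2-fold, with the normexp background correction. Ccl5, a chemokine, went from 446 ± 44.8 to 1311 ± 131 at its single spot, a difference of 1.49.

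The rest of that list stayed under 2-fold. Tnf, printed 10 times, differed by 0.0014 with an SD of 0.045, Nos2 by 0.00097, Irf8 by 0.20 and Irf1 by -0.15. The lowest were Cxcl10 with -0.56, Socs3 with -0.23 and Marcks with -0.23. Ptgs2 was dim with DMSO and at least 1.19-fold higher. Il6 was not above background on either array, and no probe was matched to Il12b.

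**Figure D4:**
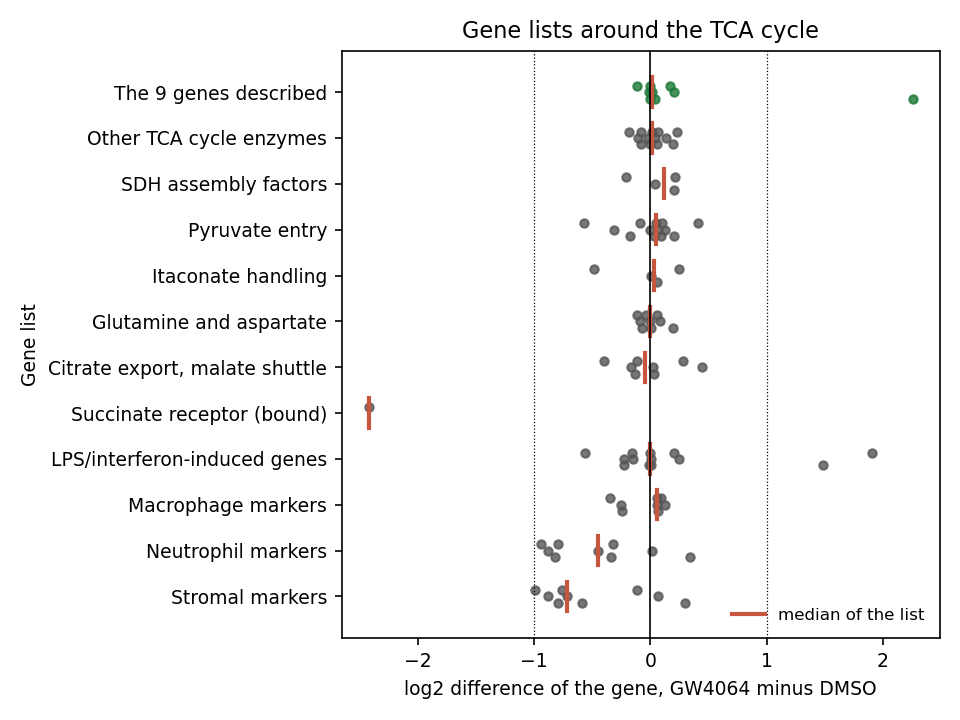
Log2 difference of each measured gene in the lists around the TCA cycle, with the median of each list as a bar and 2-fold as dotted lines. Acod1 among the 9 genes, Il1b and Ccl5 among the LPS and interferon induced genes and Sucnr1, drawn at its bound, lie outside 2-fold, and the neutrophil and stromal markers lie mostly below 0.

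The cells carried the markers of macrophages. Of 9 markers 8 had a matched probe and all 8 were above background, with log2 differences between -0.34 for Mrc1 and 0.13 for Cd14. Of 5 genes of the M2 condition, 5 were above 0 with a median of 0.91, where 51.6% of all measured genes were above 0. Arg1 had 3.82, Mgl2 0.99, Retnla 0.91, Ccl24 0.21 and Chil3 0.066. Centred on the spike-in RNA, Chil3 was at -0.12. Mrc1, which the authors also used as an M2-associated gene, was counted among the macrophage markers and was the lowest there. Neutrophils can also express Acod1. Of 11 neutrophil markers 9 were measured and 7 of them were lower, with a median of -0.45, while Retnlg was at background. Their summed signal was 72526 with DMSO and 70832 with GW4064. Csf3r gave most of that sum, with 58516 and 61730, so it says little about the other markers. S100a9, the next brightest, went from 8136 to 4614. Stromal markers were lower for 7 of 9 measured genes of 10, with a median of -0.72 and a sum that went from 37642 to 21512, and Lum was at background. In a bulk culture fewer cells of a type and less RNA per cell cannot be told apart, and the part of such cells in the values of the 9 genes was not tested. Dendritic cell markers were measured for 3 of 5 genes, with a median of 0.44 and Xcr1 at background. Of these Zbtb46 had 0.44 and Ccr7 -0.60. Flt3, a growth factor receptor of dendritic cells and their progenitors, had signals of 10.5 with DMSO and 81.5 with GW4064 at the spot of 1 probe. Only the second lay well above background, which makes Flt3 at least 4.95-fold higher there, with 3 other spots of 8-fold difference within 300 µm. Its other probe was at background on both arrays, and with normexp its log2 difference was 0.72. T cell markers were measured for 2 of 5 genes, with a median of 0.016 and with Cd3d and Cd8a at background. B cell markers were measured for 1 of 3, with Cd79a at background. The measured one, Ms4a1, went from 35.8 with DMSO to 7.08 with GW4064, not well above background, at least 2.475-fold lower, and had a log2 difference of -0.57 with normexp. The part of these cells in the values of the 9 genes was not tested either.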

How the data were processed

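The authors extracted the scans with Agilent Feature Extraction 10.7.1.1, named in the submitters' processing notes, and deposited the intensity of each spot with background subtracted and trends within the array removed, unscaled between arrays. The arrays shared 1 slide and 1 scan. The deposited log2 table of the authors gave the same differences for 21707 probes apart from a constant of 0.0022. Its scale is log2, and the baseline of its centring is unknown.

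Here the log2 signal minus the 75th percentile of 43020 non-control spots (signals of 1209 and 1265) was used. Marked spots were left out (399 with DMSO and 207 with GW4064) and 0 spots were saturated. Copies were averaged, then probes of a gene. Where a probe was dim on 1 array, its signal or the lowest signal above background (15.7 for DMSO and 15.1 for GW4064), whichever was greater, stood in for it, and the difference is a bound. Of 39429 probes 26581 matched a RefSeq transcript of GRCm38.p6, without versions. The probes were designed on another build, so no positions are given. Errors of spots are the software's estimates, propagated to log2, and for bright probes they are larger than the measured spread over copies.

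The number of arrays limits the precision. With 1 array per condition no test was run. The members, the 9 gene lists and the 7 marker lists were chosen with earlier results of these data known. Genes named are all members, the other TCA cycle enzymes, in each list those past 2-fold and the highest and lowest pair above background on both arrays, and the 3 genes on each side of Acod1. Further list genes were named after their values were seen, and some items are not reported here. The procedure was tested on simulated data. Only probes with DMSO signals above those of Acod1, Il1b and Sucnr1 were changed there, so that test does not bear on these 3 genes. Alternatives covered scaling, background correction (limma 3.58.1 in R 4.3.3), marked spots, filters, the choice of probe, thresholds, copies and damaged areas of the slide, meaning spots with 2 or more others of 8-fold difference within 300 µm. The steps ran in Python 3.11.15 with pandas 2.3.3, numpy 2.4.6, statsmodels 0.14.6 and scipy 1.17.1.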

Additional observations from a re-analysis of the deposited data

How the results depend on the processing

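No paired analysis was possible because DMSO and GW4064 were each read on a single array. Under the 11 other settings, the median over spots and each spot left out in turn, Acod1 stayed above 2-fold. Its log2 difference lay between 2.06 and 2.32 under every other scaling, between 2.22 and 2.33 with each spot left out in turn, and at 1.28 with normexp. The number of the 9 genes and of the 13 other TCA cycle enzymes past 2-fold was the same under all settings and at 1.5-fold and 4-fold. The median of those 13 was -0.18 when centred on the spike-in RNA. For 34 other genes and lists, 315 of 366 values stayed within the median SD over copies of 0.077. Another 51 moved by more, 34 of them under the spike-in centring, and 0 values past 2-fold changed sign. Many of these values could not move. Keeping marked spots, changing the filter or taking the brightest probe leaves a gene with 1 unmarked spot above background on both arrays unchanged. The deposited table differs only by a constant. Acod1, with 1 probe, is likewise untouched by the filters and the choice of probe. Leaving out damaged areas removes only its GW4064 spot at the marked position. The share that stayed within is therefore no measure of robustness. Against 276 genes 2-fold or more higher and 367 lower in all, normexp gave 72 and 64, the absence of a filter 698 and 767, and the filter on both arrays 107 and 164. The deposited table, used for probes above background on both arrays, gave 107 and 163. Without damaged areas the counts were 168 and 202. Of the changed genes 42.9% were higher, against 28.8% under the spike-in centring, with counts of 211 and 522. Signal near background limits Acod1 and Il1b on the DMSO array and Sucnr1 on the GW4064 array.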
